A study of Arabidopsis thaliana with 26 samples.

Results

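Of 22746 Arabidopsis probe sets on the ATH1 array, 135 shared 2 features, since they were low after cold in 4 plant lines, and in plants on compost they were higher in the group coded 24f than in the group coded 00f. They were chosen on the group means of log2(intensity + 16). A probe set was taken if cold minus control was at or below -1.5 in each of the 4 lines and 24f minus 00f was at or above 1. The cold condition was met by 230 probe sets (1.01%) and the 24f condition by 967 (4.25%). The overlap was 148 probe sets, which is 64.3% of the first set and 15.3% of the second, and 13 of them were left out by name because the rule listed those genes for omission. The values behind both conditions chose the members, so they are given below as a description and without a test. Of the 135, 56 have 1 gene in the platform annotation, 2 have several and 77 have none listed, and the last are given by probe set identifier.

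The agar-grown groups came from cold-treated, dried and untreated plants of the Columbia-0 background, each array carrying RNA of the aerial tissue of 18 pooled plants. Cold means 24 h at 4 °C in continuous light, and it was applied to the lines labelled sf6, sf3 and sf2, from a chemical mutagenesis with EMS, and to wild type (wt). Drought means that the aerial tissue of sf6 or wt was cut off and left for 2 h in a stream of dry air, and no cut but undried tissue was sampled. Control plants of the 4 lines stayed at 21 °C and 100% humidity on agar in continuous light. The series title links the lines to the SFR (sensitive to freezing) genes. As background, SFR6 encodes a subunit of the Mediator complex needed for part of the cold-induced transcription, SFR2 a galactolipid-remodelling enzyme of the chloroplast envelope, and SFR3 a cytosolic acetyl-CoA carboxylase. The groups 00f, 03f and 24f came from compost containing the insecticide Intercept, kept at 4 °C in days of 9 h light and 15 h dark (70% humidity). The labels give neither their genotype nor the meaning of the code. Each of the 13 groups had 2 arrays, which nothing in the labels says came from separate cultures, so the spread behind every p-value may be technical only.

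Leaf growth slows within hours of a move to low temperature, while photosynthesis goes on and soluble sugars build up. A protein kinase of plants, SnRK1, is active when sugar or energy is short and promotes the breakdown of reserves and amino acids, including the mitochondrial breakdown of leucine. Transcripts of such starvation genes are known to change with light, sugar and time of day.

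The leaf markers RCA (Rubisco activase) and PRK (phosphoribulokinase), which are 2 of 8 on their list with a probe set, summed to 3105.9 to 6267.5 over the 26 arrays. In cold the sum moved with the members: it was lower on every cold array (3501.3 to 5152.1) than on any control array (5263.7 to 6000.9). It was 3105.9 and 3303.1 on the 03f arrays, against 3717.1 and 4221.2 on the 00f arrays, and 3565.7 and 4356.1 on the 24f arrays. The sum thus did not follow the members from 00f to 24f, where these groups overlapped. PRK read 1510.3 to 2148.6 in cold, against 2426.0 to 2814.1 in control, and RCA 1991.0 to 3003.5 in cold, against 2759.0 to 3186.8 in control. In compost plants PRK was lower in 24f (1528.1 and 1587.3) than in 00f (2007.5 and 1721.2). RCA read 2037.6 and 2768.8 in 24f, against 2213.7 and 1995.9 in 00f. Of 11 root markers, 3 have a probe set. The root hair expansins EXPA7 and EXPA18 stayed between 10.0 and 36.6 on every array. PYK10, a beta-glucosidase abundant in roots, read 803.0 to 1659.1 on the agar arrays and 16.9 to 129.4 on the compost arrays. PYK10 moved with the members in both growth regimes: it was at 803.0 to 1088.8 on the 8 cold arrays, against 1285.9 to 1659.1 on the 8 control arrays. In compost plants it read 129.4 and 90.1 in 24f, against 24.0 and 20.4 in 00f. The part of the leaf and root markers in the results was not tested. In tissue of mixed cells, fewer cells of a type and less RNA per cell cannot be told apart.

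The median member intensity was 51.2 and 55.4 on the sf6 cold arrays, against 351.9 and 319.0 on the sf6 control arrays. In sf3 the values were 50.7 and 51.6 in cold, against 321.6 and 390.0 in control, and in sf2 58.8 and 62.8 in cold, against 351.6 and 334.9 in control. In wt they were 55.9 and 47.3 in cold, against 376.2 and 433.7 in control. All 8 cold arrays therefore lay below all 8 control arrays, and this held for each of the 135 members singly, as their choice made likely. In the compost groups the median was 89.4 and 103.4 in 00f, 87.8 and 82.0 in 03f, and 378.9 and 376.4 in 24f. At the median, 03f thus lay with 00f and not with 24f. Dried plants lay within the range of the control arrays, with 375.9 and 348.4 in sf6 drought and 397.8 and 397.9 in wt drought.

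**Figure D1:**
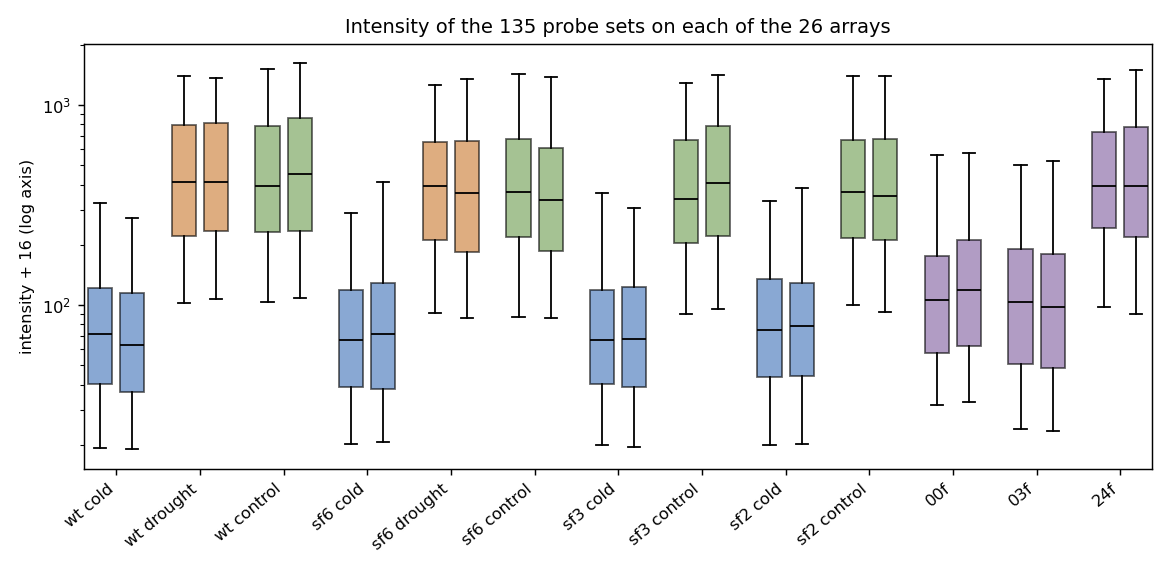
Boxes give the intensity plus 16 (log axis) of the 135 probe sets on each of the 26 arrays, with 2 boxes per group (replicate 1, then 2), the median as a line, quartiles as box ends and the 5th and 95th percentiles as whiskers. Cold, 00f and 03f arrays are low, and drought, control and 24f arrays are high, with array medians (before adding 16) of 47.3 to 103.4 against 319.0 to 433.7.

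The median cold difference of the members was -2.13 on the log2 scale in sf6, -2.24 in sf3, -2.05 in sf2 and -2.50 in wt. The largest fall of a member was in sf6 for 18 of the 135, in sf3 for 16, in sf2 for 13 and in wt for 88. The smallest fall was in sf2 for 59, in sf6 for 46, in sf3 for 23 and in wt for 7. These are descriptions of the values that the rule used. The 24f minus 00f difference ran over the members from 1.00 to 4.44 with a median of 1.60. Just inside the cold threshold stood AT2G30930 and AT3G07310, whose weakest cold differences were -1.502 and -1.512, and just outside it DRT100 and 253806_at, both at -1.491. At the 24f threshold, 261769_at and 258239_at were inside at 1.0001 and 1.0021, and 260914_at and 267644_s_at outside at 0.9982 and 0.9827, so that the edge separates like probe sets.

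Among the regulators, AKINBETA1 encodes a beta subunit of SnRK1. Its intensity was 18.1 and 28.5 in wt cold, against 261.8 and 387.9 in wt control, and over the 4 lines 18.1 to 33.3 in cold, against 193.2 to 387.9 in control. It read 56.1 and 53.1 in 00f, 69.9 and 62.9 in 03f, and 436.9 and 357.1 in 24f. The kinase subunit transcript was therefore low in 00f and 03f, and its 24f values lay in and just above the range of untreated wt, although these plants differed in growth regime and were not tested against each other. BZIP61, a transcription factor of the basic leucine zipper family, was at the floor of the array in cold, with 0.6 to 1.6 over the 8 cold arrays, against 59.3 to 132.8 over the 8 control arrays. It read 10.8 and 6.3 in 00f, 0.5 and 0.5 in 03f, and 65.8 and 146.7 in 24f, where the 2 arrays lay far apart.

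AT5G61590, which RefSeq lists as DEWAX, encodes an ethylene-response-factor-type repressor of wax synthesis genes. It read 79.9 and 94.0 in wt cold, against 729.4 and 763.3 in wt control. In compost plants it read 292.5 and 372.9 in 00f, 68.1 and 65.6 in 03f, and 640.7 and 717.8 in 24f, so the 03f arrays stood far below both other groups. CML30, a calmodulin-like calcium sensor, read 1.1 to 11.4 over the 8 cold arrays, against 69.0 to 83.6 over the 8 control arrays; it read 17.1 and 18.8 in 00f, 16.7 and 14.2 in 03f, and 69.1 and 73.9 in 24f. DI19, a drought-induced zinc finger protein, was the brightest member in wt cold, with 383.0 and 494.1 in wt cold, against 1624.1 and 1599.6 in wt control. It read 318.7 and 390.4 in 00f, 346.8 and 379.2 in 03f, and 872.8 and 894.4 in 24f.

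MCCA encodes the biotinylated subunit of methylcrotonyl-CoA carboxylase, a mitochondrial enzyme of leucine breakdown. It read 4.2 and 4.6 in wt cold, against 152.1 and 329.1 in wt control, and 4.2 to 20.8 over all cold arrays, against 70.6 to 329.1 over all control arrays. In compost plants it read 38.2 and 39.0 in 00f, 30.0 and 39.5 in 03f, and 237.7 and 176.3 in 24f. MCCA was the single member on a list of 11 amino acid breakdown genes, of which 4 have a probe set. The partner subunit MCCB read 61.2 to 90.7 over the cold arrays, against 182.0 to 373.1 over the control arrays. IVD, the isovaleryl-CoA dehydrogenase upstream of both, read 33.8 to 42.5 in cold, against 53.9 to 223.0 in control. In 24f, IVD read 220.2 and 140.8 and MCCB 405.0 and 261.1, against 38.2 and 35.0 for IVD and 171.9 and 177.7 for MCCB in 00f. All 3 leucine breakdown genes were thus lower in cold than in control and higher in 24f than in 00f, for MCCA by the rule. IVD and MCCB missed the cold threshold in sf6, where IVD read 35.9 and 35.8 in cold, against 63.1 and 53.9 in control. MCCB missed the 24f threshold as well.

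The control level of these genes varied between arrays of a group. MCCA read 329.1 on wt control replicate 2, against 152.1 on replicate 1, and 271.4 on sf3 control replicate 2, against 122.5 on replicate 1. IVD read 213.6 and 91.8 on the same wt arrays and 223.0 and 108.7 on the same sf3 arrays. The probe set 253161_at, with no gene listed, read 1802.2 and 524.8 in wt and 1364.6 and 507.5 in sf3 in the same order. Over the members, 17 were higher by at least 0.5 (log2) on wt control replicate 2 than on replicate 1, and 1 was lower by as much. For sf3 control these counts were 29 and 7, and the median absolute gap between sf3 control replicates was 0.29 over members and 0.15 over all probe sets.

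The largest differences between 24f and 00f among members with a named gene are shown for each array beside the largest cold falls. AT2G05540, a glycine-rich protein gene, read 64.4 and 48.4 in wt cold, against 823.0 and 937.5 in wt control, and 40.9 and 14.5 in 00f, 34.7 and 35.2 in 03f, and 801.4 and 611.7 in 24f. AT5G40450 read 43.4 and 38.1 in wt cold, against 397.8 and 339.1 in wt control, and 43.6 and 66.3 in 00f, 56.4 and 48.9 in 03f, and 651.4 and 782.5 in 24f. AT1G25230, a purple acid phosphatase gene, read 17.3 and 24.6 in wt cold, against 221.9 and 196.9 in wt control, and 27.8 and 24.9 in 00f, 24.4 and 26.9 in 03f, and 318.0 and 284.3 in 24f. In all 3, the 00f and 03f arrays overlapped, and the 24f arrays stood apart.

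AT5G44020, of the acid phosphatase-like HAD family, had the largest mean cold fall of the named genes. It read 95.2 and 102.5 in wt cold, against 1334.5 and 1296.7 in wt control, and 141.1 and 167.8 in 00f, 119.5 and 130.5 in 03f, and 838.2 and 925.4 in 24f. AT1G15740, a leucine-rich repeat protein gene, read 48.0 and 41.7 in wt cold, against 224.9 and 259.5 in wt control, and 124.6 and 148.1 in 00f, 105.6 and 116.0 in 03f, and 730.6 and 689.7 in 24f. Its 24f arrays were above all 8 control arrays of the agar plants (199.9 to 259.5). AT5G51970, a sorbitol dehydrogenase gene, had a smaller range, with 185.5 and 144.4 in wt cold, against 764.1 and 845.1 in wt control, and 837.8 and 598.2 in 24f, against 287.4 and 335.0 in 00f.

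AT1G56220, of the dormancy and auxin-associated family, read 136.0 and 60.6 in wt cold, against 877.1 and 1177.9 in wt control, and 383.1 and 501.5 in 00f, 279.7 and 299.9 in 03f, and 1318.1 and 1383.4 in 24f. AT5G18600, a CC-type glutaredoxin gene, read 48.8 and 26.2 in wt cold, against 455.8 and 566.9 in wt control. Its 00f arrays, at 494.9 and 401.9, were not low on that scale, and it read 336.5 and 327.0 in 03f and 955.8 and 1166.1 in 24f. In AT5G24490, a gene for a plastid ribosomal protein, 00f lay between the cold and control arrays of wt, with 150.1 and 159.5 in wt cold, against 1237.1 and 1717.5 in wt control, and 543.4 and 562.4 in 00f. Over the members, the 00f mean was above the wt cold mean for 111 of 135, and the 24f mean was above the wt control mean for 67, with no test because the regimes differed.

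Genes with roles at the cell surface or in lipids were also present. SKU5, a glycosylphosphatidylinositol-anchored protein related to multicopper oxidases that guides directional root growth, read 140.7 and 104.1 in wt cold, against 956.9 and 915.9 in wt control, and 234.0 and 294.4 in 00f, 143.9 and 159.3 in 03f, and 610.7 and 766.5 in 24f. CP5, which has a lipid-binding START domain, was the brightest member with a listed gene in wt control, with 374.5 and 286.8 in wt cold, against 2480.5 and 2344.9 in wt control, and 607.7 and 748.1 in 00f, 394.3 and 393.1 in 03f, and 1892.4 and 2512.6 in 24f. AT4G23820, a pectin lyase-like gene, read 72.8 to 149.1 over the cold arrays, against 245.9 to 428.7 over the control arrays, and 819.0 and 891.5 in 24f, against 266.1 and 294.4 in 00f. AT3G10720, a pectin methylesterase gene, read 26 to 38.5 over the cold arrays, against 179.1 to 284.5 over the control arrays.

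Of the other named genes from the selection by size, AT2G30930 read 67.4 and 74.3 in wt cold, against 383.0 and 342.5 in wt control, and AT1G80180 read 50.3 and 32.5, against 312.3 and 415.8. AT5G16030 read 61.8 and 69.3 in wt cold, against 548.1 and 535.5 in wt control, and AT3G06070 read 12.1 and 11.6, against 165.1 and 153.6. AT3G15630 read 39.2 and 33.2 in wt cold, against 296.1 and 577.3 in wt control. Their compost values, and those of the mutant lines, stand in the plot of 16 named genes.

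**Figure D2:**
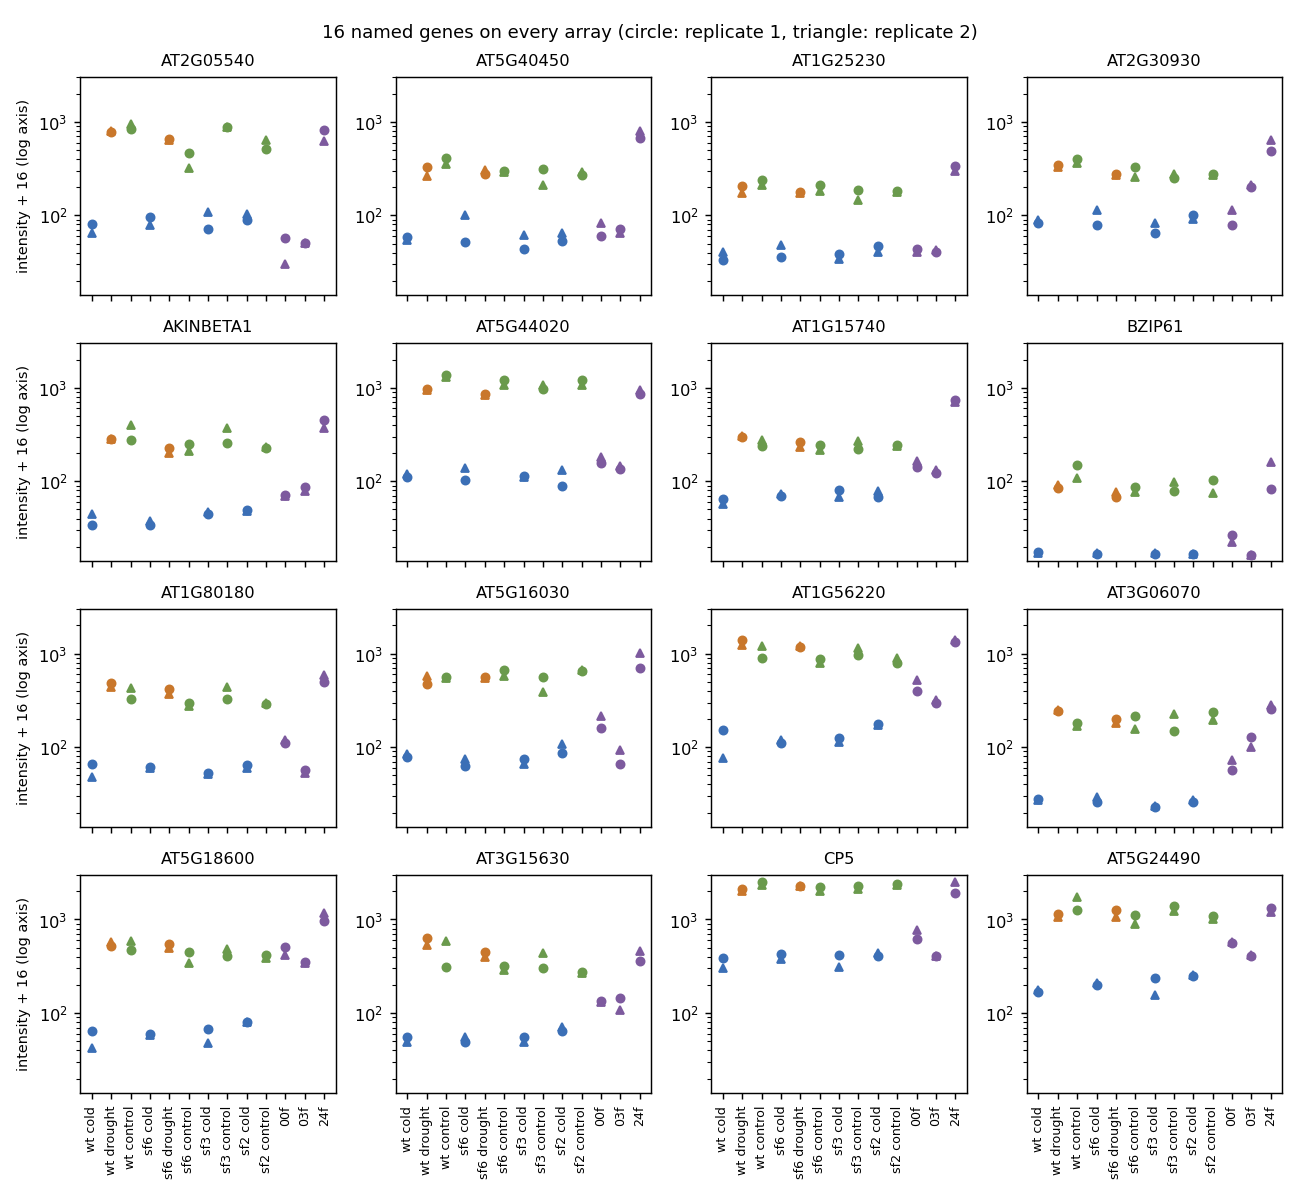
Each panel gives 1 named gene, with intensity plus 16 (log axis) on every array by group, circles for replicate 1 and triangles for replicate 2. The cold arrays of all 4 lines lie below the control arrays in every panel, and the 24f arrays lie above 00f and 03f.

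Members described by range include AT4G01330, a protein kinase gene, which read 13.6 to 20.5 over the cold arrays, against 147.3 to 209.2 over the control arrays, and 170.1 and 172.5 in 24f, against 32.2 and 27.9 in 00f. AT5G63190, a gene for an MA3-domain translation factor, read 46.4 to 66.8 in cold, against 236.2 to 524.9 in control, and 594.8 and 616.8 in 24f, against 132.9 and 157.5 in 00f. AT4G10060, a glucosylceramidase gene of sphingolipid breakdown, read 60.2 to 81.7 in cold, against 376.9 to 512.6 in control. In all 3, every control array lay well above every cold array.

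AT3G19850, of the BTB/NPH3 family, read 8.7 to 18.8 in cold, against 79.4 to 108.5 in control, and AT3G15770 read 0.3 to 6.6, against 46.2 to 65.1. Of the members with less known genes, AT1G01240 read 3.3 to 37.1 in cold, against 78.2 to 139.3 in control, and 341.2 and 331.5 in 24f, against 65.6 and 74.1 in 00f. AT1G49500 read 248.8 to 431.5 in cold, against 962.9 to 1304.6 in control, and AT2G46220 read 207.6 to 310.3, against 1023.1 to 1409.4. The members therefore covered the range of the array, with group means of 41.0 to 2717.7 in 24f, against 2.5 to 912.7 in 00f, and 0.45 to 438.6 in wt cold, against 48.1 to 2812.5 in wt control. The remaining named members, AT4G17245, AT5G19860, AT5G66490, AT5G62930, AT5G56100, AT4G33660, AT1G68440, AT1G21500, AT1G53560 and AT1G54740, lay inside these ranges.

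The members with no listed gene held the largest differences of all. The probe set 260221_at read 0.6 to 6.4 over the 8 cold arrays, against 628.7 to 887.2 over the 8 control arrays. In compost plants it read 49.1 and 68.6 in 00f, 9.3 and 18.8 in 03f, and 895.9 and 1225.4 in 24f. The probe set 248622_at read 13.8 to 21.0 in cold, against 424.7 to 1369.0 in control, and 46.1 and 21.4 in 00f, 22.6 and 20.2 in 03f, and 823.8 and 894.5 in 24f. The 24f minus 00f difference was largest for 253161_at, at 4.44, with 1217.0 and 1007.3 in 24f, against 41.5 and 30.5 in 00f.

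The group coded 03f was not used by the rule, and its comparison with 00f asks where the members stood in that group. It shares the 00f arrays with the rule. In a limma fit of the 6 compost arrays over 17059 probe sets, 79 of the 135 members differed between 03f and 00f at a Benjamini-Hochberg adjusted p under 0.05, against 30.3% of all probe sets tested. Of these, 27 were higher (11.5% of all were) and 52 lower (18.8% of all). The median difference of the members was -0.28, against -0.13 over all tested and a description of -0.41 for the 82 cold-lowered probe sets that did not meet the 24f condition. Of the members called, 13 rose by at least 1 on the log2 scale (9.63% of members, against 4.71% of all tested) and 17 fell by as much (12.6%, against 2.07%). Of the 76 cold-lowered probe sets tested that were below the 24f threshold, 7 were called and rose by as much (9.21%). A fall by as much was called for 14 (18.4%), so neither change was particular to the members.

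AT1G73920, a gene for a lipase-like hydrolase, had the largest rise. It read 957.3 and 911.6 in 03f, against 87.8 and 115.4 in 00f, a log2 difference of 3.02 (SE 0.18, adjusted p = 7.04e-07). The probe set 266072_at read 824.8 and 824.6 in 03f, against 132.7 and 136.2 in 00f. The other large rises were those of 257315_at (1.52), 252367_at (1.45) and 253061_at (1.36), and AT3G15770, AT1G32460, AT2G30930, AT2G24550 and AT1G27290 rose by 1.25, 1.20, 1.14, 1.13 and 1.11. In each of these genes both 03f arrays lay above both 00f arrays. AT3G06070 and AT3G10720 rose by 0.80 and 0.71.

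The largest fall was that of 265342_at, which read 8.1 and 5.9 in 03f, against 107.7 and 152.2 in 00f, a log2 difference of -2.65. The wax repressor gene AT5G61590 followed among the named genes, at -2.06 (SE 0.13, adjusted p = 9.34e-07). AT5G44680, a DNA glycosylase gene, read 22.4 and 20.7 in 03f, against 109.9 and 128.7 in 00f, at -1.85, and 252972_at and 256299_at fell by 2.13 and 1.86. In each of these both 03f arrays lay below both 00f arrays. AT2G03310 fell by 1.74, AT5G16030 by 1.23, AT1G80180 by 1.06 and AT1G71970 by 1.04, and the lipid- and surface-related genes AT3G23080, CP5 and SKU5 by 0.93, 0.75 and 0.73.

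AKINBETA1 had a 03f minus 00f difference of 0.22, MCCA of -0.11 and DI19 of 0.04, and none of the 3 passed the test. Of the other measured amino acid breakdown genes, 1 was called: ProDH2, a proline dehydrogenase gene, read 95.7 and 121.4 in 03f, against 16.4 and 13.9 in 00f, a rise of 1.99 (adjusted p = 2.43e-06). On a list of 24 starvation and dark-induced genes, 2 have a probe set and neither is a member. The transcription factor gene bZIP53 rose by 0.52 and the ubiquitin ligase gene ATL8 fell by 0.99 in 03f.

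**Figure D3:**
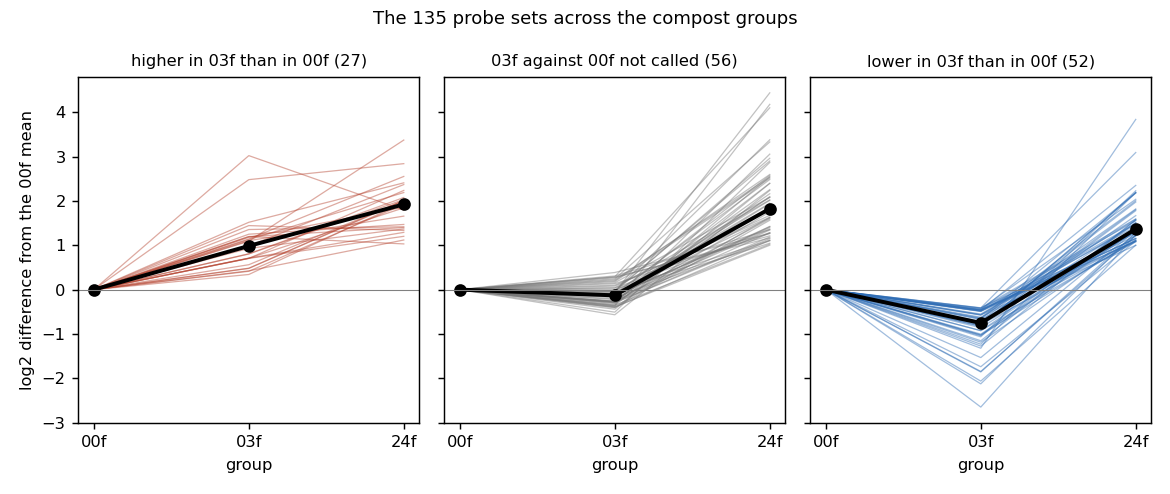
Thin lines give the log2 difference of each member from its 00f mean in 00f, 03f and 24f, in 3 panels by the call of 03f against 00f (27 higher, 56 not called, 52 lower), with the panel's median as a thick line. The median passes 0.99, -0.13 and -0.75 at 03f and ends at 1.93, 1.83 and 1.37 at 24f, where the rule required at least 1.

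The comparison of 24f with 03f shares the 24f arrays with the rule, which took members high in them, so its count is printed and not read. It called 130 members, 129 higher and 1 lower, against 46.4% of all probe sets tested (26.5% higher and 19.8% lower). The member that went the other way was AT1G73920, which read 483.4 and 313.3 in 24f, against 957.3 and 911.6 in 03f, a log2 difference of -1.23 (SE 0.18, adjusted p = 0.000268). The 5 members not called were AT1G32460, AT3G15770, 252367_at, 253061_at and 264365_s_at, with differences from -0.17 to 0.22. All 5 had been called higher in 03f than in 00f. The rule made this likely, since it required 24f to exceed 00f by at least 1. The largest 24f minus 03f differences were 5.16 for 260221_at, 4.55 for 248622_at, 4.51 for 253161_at, 3.89 for 265342_at and 3.81 for AT2G05540. On the amino acid list IVD rose by 1.97 and MCCB by 1.15, and ProDH2 fell by 0.58 (adjusted p = 6.77e-06, 0.000231 and 0.00686). Of 9 xyloglucan endotransglucosylase genes, which remodel cell walls, both that have a probe set rose (XTH16 by 1.72 and XTH33 by 1.97). The expansins, another cell wall list, went both ways, with 2 of the 4 tested called higher and 1 lower. Among them EXLA1 read 330.1 and 294.0 in 24f, against 1293.8 and 1199.6 in 03f. On the starvation list ATL8 rose by 2.03. The other gene with a probe set, bZIP53, was not called, with 305.9 and 395.6 in 24f, against 327.9 and 357.7 in 03f. PYK10 was also higher in 24f than in 03f, by 1.59 (adjusted p = 0.000148), and its part in these differences was not tested.

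Drying asks whether the members respond to water loss as they do to cold. The drought arrays were not used by the rule, but the control arrays, on which members are high by choice, were. In sf6, 6 of 135 members passed the test (limma on 20 arrays, adjusted p under 0.05), 4 higher and 2 lower in dried plants, against 3.91% of the 17059 probe sets tested (2.13% higher and 1.78% lower), with a member median of 0.03. The sf6 count depends on the fit: 1 or 2 passed with any 1 of its 4 arrays left out, 36 passed with the groups compared alone (26.7% of members, against 8.13% of all in that fit) and 22 with array weights (16.3%, against 8.91%). In wt, 24 of 135 members passed the same test, against 9.79% of all. Of these 8 were higher in dried plants (4.83% of all) and 16 lower (4.96% of all), and the median difference of the members was -0.06, against -0.03 over all. The number rests on single arrays: it was 11 without wt control replicate 1, 5 without wt drought replicate 1 and 11 without wt drought replicate 2. With each of the 4 arrays of a line left out in turn, 4 of the 24 wt calls passed every time (260037_at, 257315_at, AT1G04040 and 247266_at), and 1 of the 6 sf6 calls did (260037_at).

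AT1G04040, an acid phosphatase-like gene of the HAD family, was called lower in both lines. In sf6 it read 233.4 and 222.8 in drought, against 431.0 and 399.9 in control, a log2 difference of -0.82 (SE 0.18, adjusted p = 0.0168). In wt it read 150.3 and 196.3 in drought, against 460.8 and 385.8 in control, at -1.22 (SE 0.18, adjusted p = 0.000397). The drying groups did not overlap in either line. The sf6 call was lost with any 1 of the 4 sf6 arrays left out (adjusted p = 0.0935 to 0.124). The probe set 265066_at was called at -0.81 in sf6 and at -0.78 in wt, and lost its call with any 1 sf6 array left out (adjusted p = 0.134 to 0.149) and with 3 of the 4 wt arrays left out singly (up to 0.167).

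The rises in both lines were those of 260037_at, 253061_at and AT2G24550. The probe set 260037_at read 616.2 and 560.7 in sf6 drought, against 312.4 and 319.0 in sf6 control, and 809.6 and 849.7 in wt drought, against 266.8 and 297.9 in wt control. The log2 differences were 0.86 in sf6 and 1.505 in wt. For 253061_at they were 1.14 in sf6 and 1.13 in wt, with 910.1 and 937.6 in wt drought, against 329.9 and 518.3 in wt control. Its adjusted p was up to 0.0635 in sf6 and up to 0.052 in wt with 1 array left out. AT2G24550 had a difference of 0.75 in sf6 (adjusted p = 0.0411), and in wt it read 260.7 and 278.2 in drought, against 130.8 and 167.2 in control, at 0.80 (adjusted p = 0.0162). With any 1 sf6 array left out its sf6 difference was 0.56 to 0.93 and was not called (adjusted p = 0.0694 to 0.335), and in wt it was called in 1 of 4 such fits (adjusted p up to 0.16). The 5 members called in both lines went the same way in both, and 110 members were called in neither.

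In wt the calls also included AT3G26510, a gene for a PB1 domain protein, with 705.0 and 747.3 in wt drought, against 330.7 and 422.2 in wt control (0.93), and 260287_at (1.22). Without wt control replicate 1 these differences were 0.76 and 0.82 and were not called (adjusted p = 0.186 and 0.302), and each was called in 1 of the 4 fits that leave out a wt array. Lower in dried wt were 257315_at (-1.498), MCCA (-1.07), 247266_at (-0.95), AT4G19530, a disease-resistance-type gene (-0.86), SKU5 (-0.55) and the lipase gene AT5G18630 (-0.47). The call of AT4G19530 was lost in 2 of those 4 fits (adjusted p up to 0.178), and those of SKU5 and AT5G18630 in all 4 (adjusted p up to 0.208 and 0.267). MCCA read 102.0 and 95.1 in wt drought, against 152.1 and 329.1 in wt control (adjusted p = 0.0271). With 1 wt array left out its difference ran from -1.59 to -0.55, the latter without wt control replicate 2, and its call was lost in most of these fits. With all arrays the call was also lost with a pseudocount of 1, with no filter and with the groups compared alone (adjusted p = 0.0518, 0.0607 and 0.0576). MCCA in sf6 read 90.6 and 83.8 in drought, against 81.0 and 70.6 in control. AT2G05540 was called in sf6 and not in wt, with 631.7 and 627.3 in sf6 drought, against 453.7 and 301.5 in sf6 control (0.74, adjusted p = 0.0408). Without sf6 control replicate 2 this was 0.46 with an adjusted p of 0.393, and it was called in 1 of the 4 fits that leave out an sf6 array.

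The difference between the drying responses of sf6 and wt was called for 0 of 135 members, and for 0.0% of all (limma). At an unadjusted p under 0.05 there were 11 members (8.15%), against 6.44% of all. The largest such difference was 1.62 for 253161_at, followed by 1.24 for MCCA, and neither was called (adjusted p = 0.706 and 0.616). PYK10 had a drying difference of -0.22 in sf6 (adjusted p = 0.369) and was lower in dried wt (-0.81, adjusted p = 0.000428). It read 950.7 and 886.2 in wt drought, against 1659.1 and 1579.7 in wt control. The other root markers did not fall with it. EXPA7 read 28.8 and 26.9 in wt drought, against 22.3 and 27.2 in wt control, and EXPA18 29.8 and 22.5, against 21.5 and 27.1. The part of the root markers in the drying calls was not tested.

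**Figure D4:**
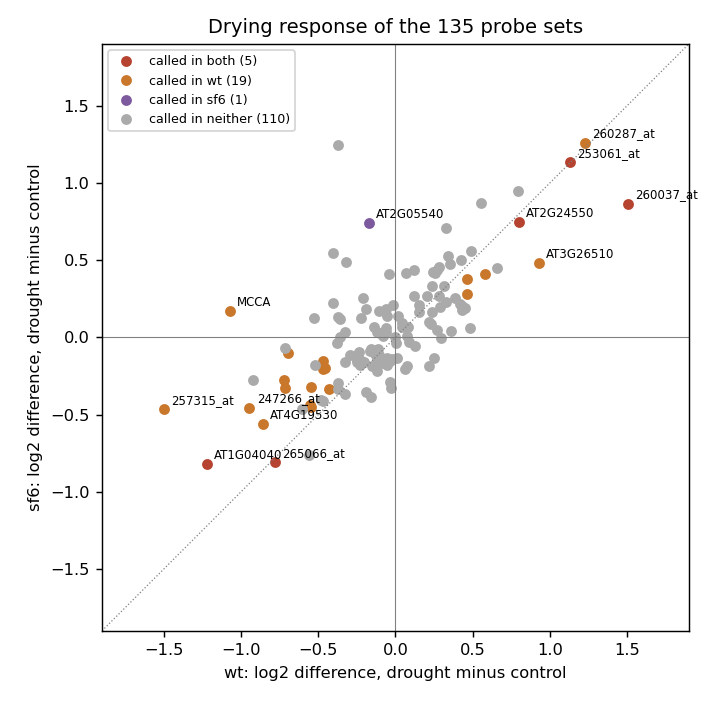
Each point is 1 member, with the log2 difference of drought minus control in wt on the x axis and in sf6 on the y axis, and a dotted line where both are equal. The 5 members called in both lines lie in the upper right (260037_at, 253061_at, AT2G24550) and lower left (AT1G04040, 265066_at) of the plot, 19 were called in wt alone, 1 (AT2G05540) in sf6 alone, and 110 in neither.

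The drying and 03f calls share no array. Of the 27 members higher in 03f, 3 were called higher and 3 lower in dried wt, and of the 52 lower in 03f, 3 were called higher and 7 lower. Of the 56 not called in 03f, 2 were called higher and 6 lower, and of all probe sets tested 4.83% and 4.96%. In dried sf6, 2 of the 27 were called higher and 0 lower, 0 of the 52 higher and 2 lower, and 2 of the 56 higher and 0 lower. Of all probe sets tested, 2.13% were called higher and 1.78% lower in dried sf6. A link between the 03f and drying calls was not tested. The probe set 257315_at was among those that went opposite ways, at 182.4 and 111.0 in 03f, against 43.6 and 35.4 in 00f, and at 235.7 and 297.0 in wt drought, against 535.4 and 1124.4 in wt control. AT3G26510 also went opposite ways, lower in 03f than in 00f by 0.66 and higher in dried wt. The 3 that were higher in 03f and in dried wt were AT2G24550, 253061_at and 261276_at. The 7 that were lower in 03f and in dried wt include AT1G04040, SKU5, AT3G23080 and the RNA-binding protein gene AT1G22330. Of these named genes and probe sets, only AT1G04040 and 257315_at kept their wt drying calls whichever wt array was left out. The wt differences in those fits were 0.41 to 0.52 for 261276_at, -0.50 to -0.44 for AT3G23080 and -0.72 to -0.37 for AT1G22330.

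The mutant lines were compared with wt within a treatment. Dried sf6 against dried wt is the single comparison whose arrays the rule did not use, and limma called 0 of 135 members and 0.00586% of all. At an unadjusted p under 0.05 there were 22 members (16.3%), against 7.2% of all. Of the members, 101 were lower in dried sf6, with a median difference of -0.12 against 0.01 over all. The fit of those groups alone called 9 members (6.67%), 1 higher and 8 lower, against 0.703% of all in that fit.

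For untreated plants, whose arrays the rule used, 1 member was called in sf6, AT2G05540, and it was lower (0.0293% of all were called and 0.0234% were lower). At an unadjusted p under 0.05 there were 40 members in untreated sf6 (29.6%), against 10.7% of all. It read 453.7 and 301.5 in sf6 control, against 823.0 and 937.5 in wt control, a log2 difference of -1.21 (SE 0.19, adjusted p = 0.0336). Without wt control replicate 2 the difference was -1.12 (adjusted p = 0.38), and without sf6 control replicate 2 it was -0.93 (adjusted p = 0.449). It read 864.5 and 865.2 in sf3 control and 491.6 and 623.2 in sf2 control, so that the sf3 arrays lay within the wt range and the sf2 arrays between sf6 and wt. MCCA read 81.0 and 70.6 in sf6 control and 96.8 and 91.1 in sf2 control, against 152.1 and 329.1 in wt control, with differences of -1.39 and -1.13 that did not pass (adjusted p = 0.0782 and 0.146). Of the members, 105 were lower than wt in untreated sf6, 106 in untreated sf3 and 92 in untreated sf2, with medians of -0.19, -0.15 and -0.13. These counts share the wt control arrays.

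In untreated sf3 and sf2, 0 members were called in each, against 0.123% and 0.111% of all (limma). At an unadjusted p under 0.05 there were 15 members in sf3 (11.1%), against 6.65% of all, and 39 in sf2 (28.9%), against 9.24%. In the cold, 0 members were called in sf6, sf3 or sf2 against wt, with backgrounds of 0.0117%, 0.0234% and 0.117% of all. At an unadjusted p under 0.05 there were 13 members in sf6 (9.63%, against 6.85% of all), 16 in sf3 (11.9%, against 5.87%) and 38 in sf2 (28.1%, against 11.1%). Members are high on control arrays and low on cold arrays by choice, so these shares are printed and not read. The cold medians were 0.10 in sf6, 0.03 in sf3 and 0.19 in sf2, and 96, 73 and 103 members were higher than in cold wt. Those counts share the wt cold arrays. The nearest to a call were 261144_s_at and 257634_s_at in cold sf2, at 0.69 and 0.61 (adjusted p = 0.0679 and 0.0768). The probe set 257634_s_at lists the cytochrome P450 genes CYP71B20 and CYP71B19, whose signals it cannot separate.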

How the data were processed

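RNA was measured on 26 Affymetrix ATH1 arrays, 2 in each of 13 groups. The values deposited by the authors are linear intensities, scaled on every array to a mean of 100.01 after trimming 2% at each end. The software is not given in the sources used here. Array medians were 38.2 to 44.4, and the number of arrays limits precision. From the deposited intensities log2(intensity + 16) was computed, so differences understate changes of dim genes. The 20 agar arrays and the 6 compost arrays were fitted separately with limma 3.58.1 in R 4.3.3 (group means, intensity trend, no replicate block). After removal of control probe sets and of the dimmest by mean (those under the 25th percentile), each fit held 17059, and all 135 members passed. P-values were adjusted by Benjamini-Hochberg over all of them in each of 12 comparisons. The fit was tested on simulated data with 200 changed probe sets. For 03f against 00f it recovered 55% of log2 changes of 1 and 2% of changes of 0.5. For drying in wt these shares were 89% and 37%, and for dried sf6 against dried wt 89% and 26%. False calls numbered 1, 5 and 7 in that order. The simulation changed 200 of 17059 probe sets, whereas in the data 30.3% were called in 03f against 00f and 9.79% in wt drying. Its recovered shares therefore do not carry over to these comparisons. A member that was not called may still have changed. Each gene was named from the platform annotation and RefSeq where 1 gene is listed.

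The members and the gene lists were chosen with earlier results of these data known. The text names, first, the 10 named members with the largest 24f minus 00f difference and the 10 with the largest mean cold fall, then up to 5 higher and 5 lower members per comparison whose groups do not overlap, members on a gene list with up to 4 other genes of it, and members at the edge of each threshold. Other genes were chosen after their values were seen: those that add a function, DI19, CML30 and AT5G51970 among them, and near-threshold results of mutants. Of the lists, 12 aquaporin genes and 4 seed and flower markers have no probe set here. Of 9 expansins 4 were tested, of 11 Aux/IAA genes 1 and of 13 clock genes 1. Alternatives are given in the closing section.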

Additional observations from a re-analysis of the deposited data

How the results depend on the processing

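Each gene and count was recomputed under other settings. The number of members (135) was 249 with a pseudocount of 1 (all 135 among them), 59 with 64, 65 with a cold fall of 2 or more, 76 with a 24f rise of 1.5 or more, 120 with arrays scaled to equal medians, 137 after quantile normalization, and 125 to 145 with 1 array left out. In 446 results of named members, the direction held in all, and the call in 384. All lost calls were in drying of wt, drying of sf6 or untreated sf6, and none in the compost comparisons, of which 24f against 03f shares arrays with the rule. The pooled share thus overstates how firm the drying calls are. The called counts moved as follows. For drying in wt (24), 8 were called without both repeat1 arrays and 5 to 16 with 1 array left out. For drying in sf6 (6), the counts were 11 with a pseudocount of 64, 3 with no filter, 36 with the groups compared alone, 22 with array weights, 2 without the repeat1 arrays and 1 to 2 with 1 array left out. For dried sf6 against dried wt (0), 9 were called with the groups alone and 0 to 0 with 1 array left out, as for the difference of the responses. For untreated sf6 (1), none was called (0) with a pseudocount of 1, equal medians, no filter, or the groups alone, and 5 with all 26 arrays, 11 with array weights, 9 without the repeat1 arrays and 0 to 10 with 1 array left out (10 without wt control replicate 1). For cold sf6 the range was 0 to 2, and for untreated and cold sf3 0 to 0, with 1 call in cold sf3 at a pseudocount of 1. Untreated sf2 (0) gave 2 with a pseudocount of 64, 3 with array weights, 6 without the repeat1 arrays and 0 to 8 with 1 array left out. Cold sf2 (0) gave 4 with a pseudocount of 1, 1 with array weights and 0 to 5. For 03f against 00f (79) the range was 54 to 73 and for 24f against 03f (130) 126 to 128. The share of all probe sets called also moved with the setting, as for sf6 drying (3.91%, and 8.91% with array weights). Where that share is not given, the counts are printed and not read as a result about the members. The cause of these moves was not tested. A planned count of promoter motifs was not run, since no promoter sequence was used here.

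The replicate numbers do not pair the arrays: the correlation of deviations of same-numbered arrays ran from -0.09 to 0.20. With the replicate number as a block, 85 members were called for 03f against 00f, 130 for 24f against 03f, 0 for untreated sf6 and 1 for cold sf2. The shares of all probe sets called in that fit are not given, so these counts are printed and not read. Dim values limit the cold levels, where several members lie near 0.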
